A study of Rattus norvegicus with 23 samples.

Results

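The nuclear genes that encode respiratory complexes II to V and cytochrome c were followed in the lungs of rats exposed to eucalyptus wood smoke. Members were all protein-coding rows whose symbol was Sdha to Sdhd, Cyc1 or Cycs, or began with Uqcr, with Cox and a digit from 4 to 8, or with Atp5. That gave 48 of the 19249 rows: 4 for complex II, 9 for complex III, 1 for cytochrome c, 17 for complex IV and 17 for complex V. Of these, 44 had a mean of at least 10 normalized counts over the 22 libraries and were tested. Cox6a2, Cox6b2, Cox7b2 and Atp5md did not reach that mean.

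Male rats breathed filtered air (7 libraries), low smoke (8 libraries) or high smoke (7 libraries). Strain and age are not given in the sources used here. The smoke was given to the whole body at a target carbon monoxide concentration of 10 ppm for low smoke and 20 ppm for high smoke, on 4 days of week 1 and, after a break of 3 days, on 3 days of week 2. RNA came from a frozen lung piece of about 35 mg per animal, so each value mixes all lung cell types. In such samples, a change in the share of a cell type cannot be told apart from a change in RNA per cell.

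Complex II (succinate dehydrogenase) and complex III (the cytochrome bc1 complex) pass electrons through ubiquinone to cytochrome c. Complex IV (cytochrome c oxidase) hands them to oxygen, and complex V (ATP synthase) uses the resulting proton gradient to make ATP. Complex II is encoded wholly in the nucleus, whereas complexes III, IV and V each combine nuclear subunits with subunits made inside the mitochondrion. In mammals, many of the nuclear genes have binding sites for NRF1, GABP or YY1 near their start.

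Depth was 8484162 to 12055513 read equivalents per library, which limits precision most for members with low values. The 48 members together took 0.203% to 0.296% of a library's counts. On the first principal component of all tested genes, high smoke replicates 1, 3 and 7 scored 51.5, 41.7 and 36.5, and the other 4 high smoke libraries 0.3 to 8.8. Values without those 3 libraries are given beside the members called in high smoke against air and beside the main counts and medians. Some markers of cell types moved in high smoke too. By limma over all tested genes, 3 of 8 alveolar type 2 markers (Sftpc, Sftpd and Napsa), 2 of 5 alveolar type 1 markers, 3 of 6 smooth muscle markers, 2 of 4 red cell markers, 1 of 4 B cell markers and 1 of 4 endothelial markers rose, while 1 of 5 macrophage and 1 of 4 ciliated cell markers fell. Over all tested genes 9.21% rose and 7.05% fell. Of the tested pericyte (7), T cell (3) and cardiac muscle (10) markers, 0 passed. Lists with a call were not uniform: 1 of 4 endothelial and 2 of 5 macrophage markers lay above air, with medians of -0.06 and -0.03 (log2). Without those 3 libraries 1 alveolar type 2 marker rose and 0 markers of the other types passed. The summed alveolar type 2 markers were 184449 to 234234 normalized counts in air, 178190 to 246283 in low smoke and 226429 to 295566 in high smoke. The part of these markers in the results below was not tested.

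High smoke was compared with air to see which subunits differ at the higher concentration. By limma, 9 of the 44 tested members rose and 3 fell, while 9.21% of all tested genes rose and 7.05% fell (16.3% in all). The median change of the members was 0.10 on the log2 scale against -0.002 for all tested genes, and 26 of 44 lay above air. That median was 0.03 without replicates 1, 3 and 7 and 0.02 with equal library totals (all tested genes 0.005 and -0.078). Leaving out 1 library moved it both ways. It was 0.05, 0.06 and 0.06 without high smoke replicate 7, air replicate 6 and air replicate 4. Without high smoke replicate 6, air replicate 3 and high smoke replicate 2 it was 0.14, 0.135 and 0.129. The members that rose were Sdhb and Sdhd of complex II, Cyc1, Uqcrc2 and Uqcrh of complex III, Cox5a of complex IV, and Atp5f1a, Atp5f1b and Atp5mc2 of complex V. The members that fell were Cox6c of complex IV and Atp5pf and Atp5me of complex V. Of the 15 tested members with a mean of at least 400 normalized counts, 7 rose and 0 fell. Among all tested genes at that level 14.1% rose and 9.8% fell. Of the 29 tested members under 400, 2 rose and 3 fell, beside 6.7% and 5.6% of all tested genes there. High smoke and air libraries did not overlap for 6 of the 44 members, all higher in high smoke, where 1.3% of all tested genes were higher without overlap. Without high smoke replicates 1, 3 and 7, limma called 5 members upward (Sdhb, Uqcrc2, Uqcrh, Atp5f1a and Atp5mc2) and 0 downward, against 0.681% and 0.181% of all tested genes. In that setting 11 members had an unadjusted p below 0.05. The share of all tested genes at that unadjusted level was not counted, here or for the other contrasts. When all libraries were given equal totals, 8 members rose, 3 fell and 22 of 44 lay above air, and 6.2% of all tested genes rose and 12.5% fell.

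**Figure D1:**
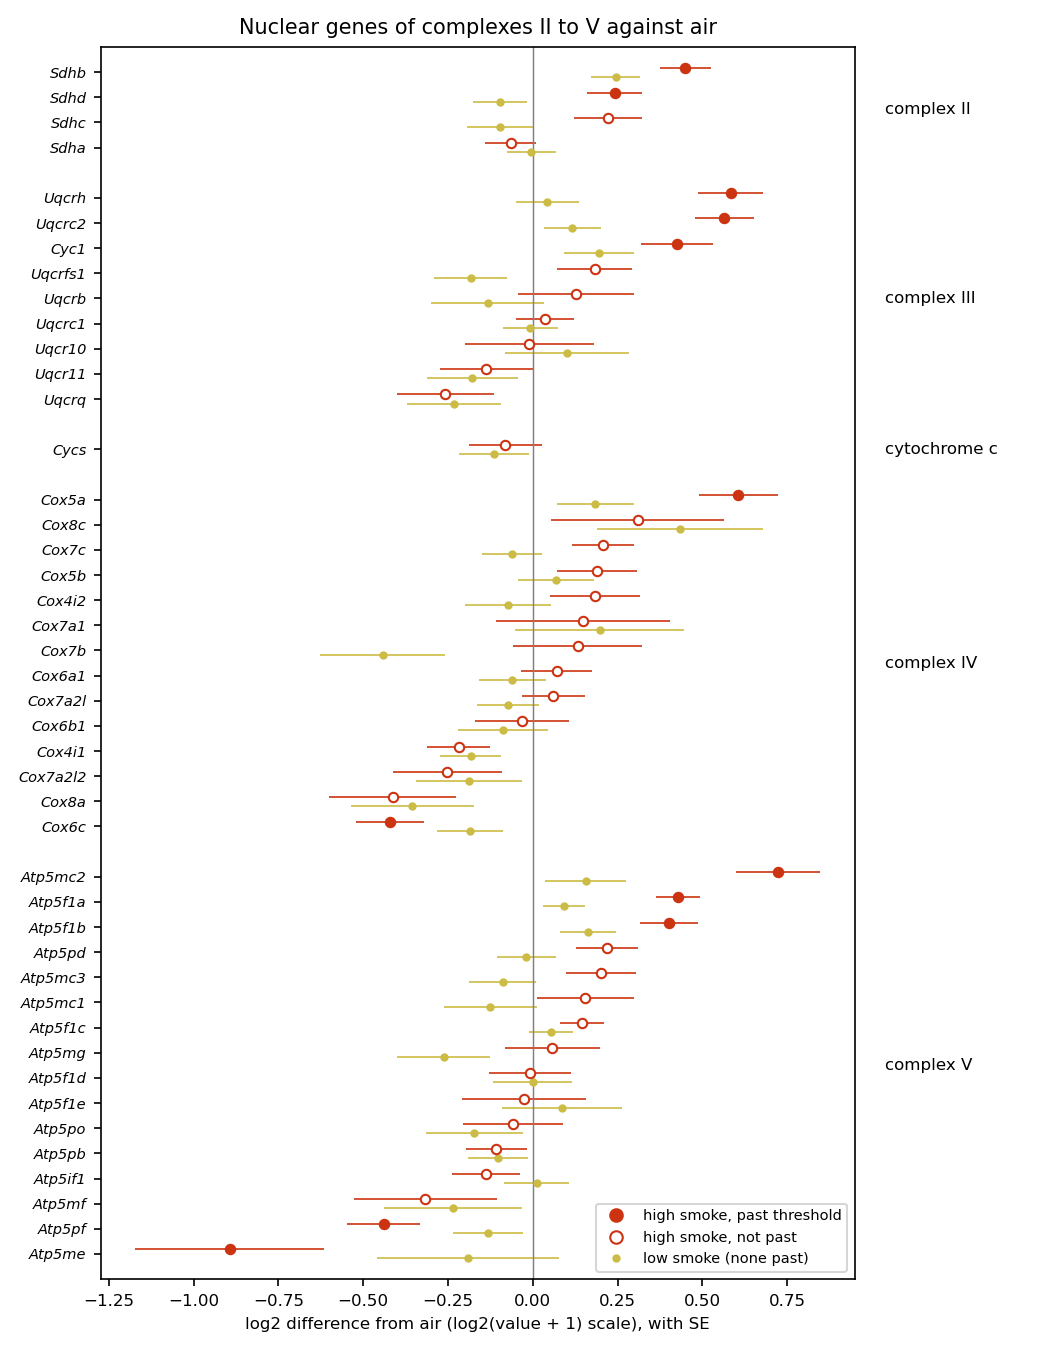
Log2 difference from air, with its SE, for the 44 tested members grouped by complex, in high smoke (large points, filled where past the limma threshold) and low smoke (small points). The 9 filled points to the right of 0 and the 3 to the left are the members that rose and fell in high smoke, and none passed in low smoke.

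The start regions of 7 members are shown because they hold the letters searched: 5 members that rose in high smoke also without replicates 1, 3 and 7, Atp5pf, which fell, and Sdha, which was not called. The windows run from 250 bases before to 50 bases after the start annotated by RefSeq in build GRCr8, 5′ to 3′ on the gene's strand. Capitals mark matches to GCGCA and GCGC with any 1 base between them (NRF1), CCGGAAG (GABP) or AAGATGGC (YY1) on either strand.
Sdhb (chr5:158547684-158547983, + strand): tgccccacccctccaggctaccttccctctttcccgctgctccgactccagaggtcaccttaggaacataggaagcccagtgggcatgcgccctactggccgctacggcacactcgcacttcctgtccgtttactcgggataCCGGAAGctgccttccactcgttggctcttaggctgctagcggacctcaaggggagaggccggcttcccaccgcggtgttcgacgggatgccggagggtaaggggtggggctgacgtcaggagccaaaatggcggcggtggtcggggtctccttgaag
Uqcrc2 (chr1:184598990-184599289, + strand): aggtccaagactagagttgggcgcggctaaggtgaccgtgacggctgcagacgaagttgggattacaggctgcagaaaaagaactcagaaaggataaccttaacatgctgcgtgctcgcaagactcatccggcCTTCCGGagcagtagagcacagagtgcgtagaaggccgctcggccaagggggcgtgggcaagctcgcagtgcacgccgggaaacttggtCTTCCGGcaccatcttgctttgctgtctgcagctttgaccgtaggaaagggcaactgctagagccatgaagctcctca
Uqcrh (chr5:134790833-134791132, - strand): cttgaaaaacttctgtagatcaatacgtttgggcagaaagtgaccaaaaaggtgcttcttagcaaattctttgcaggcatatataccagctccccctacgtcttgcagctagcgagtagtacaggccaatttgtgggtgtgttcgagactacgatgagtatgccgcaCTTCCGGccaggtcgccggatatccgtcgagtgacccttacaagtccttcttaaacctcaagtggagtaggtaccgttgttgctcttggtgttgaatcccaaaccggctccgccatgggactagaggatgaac
Atp5f1a (chr18:73567287-73567586, + strand): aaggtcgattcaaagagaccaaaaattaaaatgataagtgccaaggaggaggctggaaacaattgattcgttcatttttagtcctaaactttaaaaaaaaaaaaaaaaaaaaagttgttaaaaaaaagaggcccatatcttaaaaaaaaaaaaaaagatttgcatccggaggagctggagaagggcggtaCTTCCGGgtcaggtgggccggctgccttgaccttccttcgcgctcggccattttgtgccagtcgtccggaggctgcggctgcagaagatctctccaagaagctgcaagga
Atp5mc2 (chr7:135678169-135678468, - strand): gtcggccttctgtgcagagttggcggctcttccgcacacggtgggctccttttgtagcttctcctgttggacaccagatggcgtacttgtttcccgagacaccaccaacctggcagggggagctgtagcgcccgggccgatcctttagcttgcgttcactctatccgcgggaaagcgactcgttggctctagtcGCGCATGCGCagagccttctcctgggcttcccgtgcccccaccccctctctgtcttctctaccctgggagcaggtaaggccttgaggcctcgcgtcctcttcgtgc
Atp5pf (chr11:37375052-37375351, - strand): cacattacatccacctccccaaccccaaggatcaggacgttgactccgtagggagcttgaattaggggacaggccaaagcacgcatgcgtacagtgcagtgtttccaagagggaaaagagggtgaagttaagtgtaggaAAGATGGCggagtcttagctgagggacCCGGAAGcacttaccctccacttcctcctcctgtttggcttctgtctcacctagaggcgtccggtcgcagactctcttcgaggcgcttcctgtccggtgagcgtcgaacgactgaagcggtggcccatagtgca
Sdha (chr1:30764303-30764602, + strand): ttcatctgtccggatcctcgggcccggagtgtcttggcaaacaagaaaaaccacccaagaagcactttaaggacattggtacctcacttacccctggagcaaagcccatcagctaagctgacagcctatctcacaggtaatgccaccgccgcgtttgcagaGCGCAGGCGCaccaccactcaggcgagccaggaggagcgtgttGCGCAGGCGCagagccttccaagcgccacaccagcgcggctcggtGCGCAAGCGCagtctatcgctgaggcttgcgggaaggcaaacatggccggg
In these windows Sdhb, Uqcrh and Atp5f1a hold 1 GABP match each and Uqcrc2 holds 2, at 117 and 28 bases before the start. Atp5mc2 holds 1 NRF1 match 56 bases before the start, Sdha holds 3 NRF1 matches, and Atp5pf holds 1 YY1 and 1 GABP match.

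A promoter window could be matched for 38 of the 48 members. A GABP match stood in 12 of the 38 (31.6%), against 11.2% of 19005 protein-coding promoters of the same length. An NRF1 match stood in 7 (18.4%, against 6.1%) and a YY1 match in 7 (18.4%, against 3.9%), and 20 of 38 held at least 1 of the 3 motifs (52.6%, against 18.8%). Among the 8 members that rose and had a window, 5 held GABP, 1 NRF1 and 0 YY1. Among the 25 with a window that were tested and not called, 5 held GABP, 5 NRF1 and 5 YY1, and both members that fell and had a window held GABP and YY1. Whether motifs differ between called and other members was not tested. No motif contains another, and a match is a description of the sequence, not evidence of binding. Genes of these factors were measured in the same libraries: Gabpb1, a subunit of GABP, fell by 0.27 in log2 units (SE 0.081, limma adjusted p = 0.0263), while Gabpa stood at 0.02, Nrf1 at 0.09 and Yy1 at -0.10, none of them past the test.

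**Figure D2:**
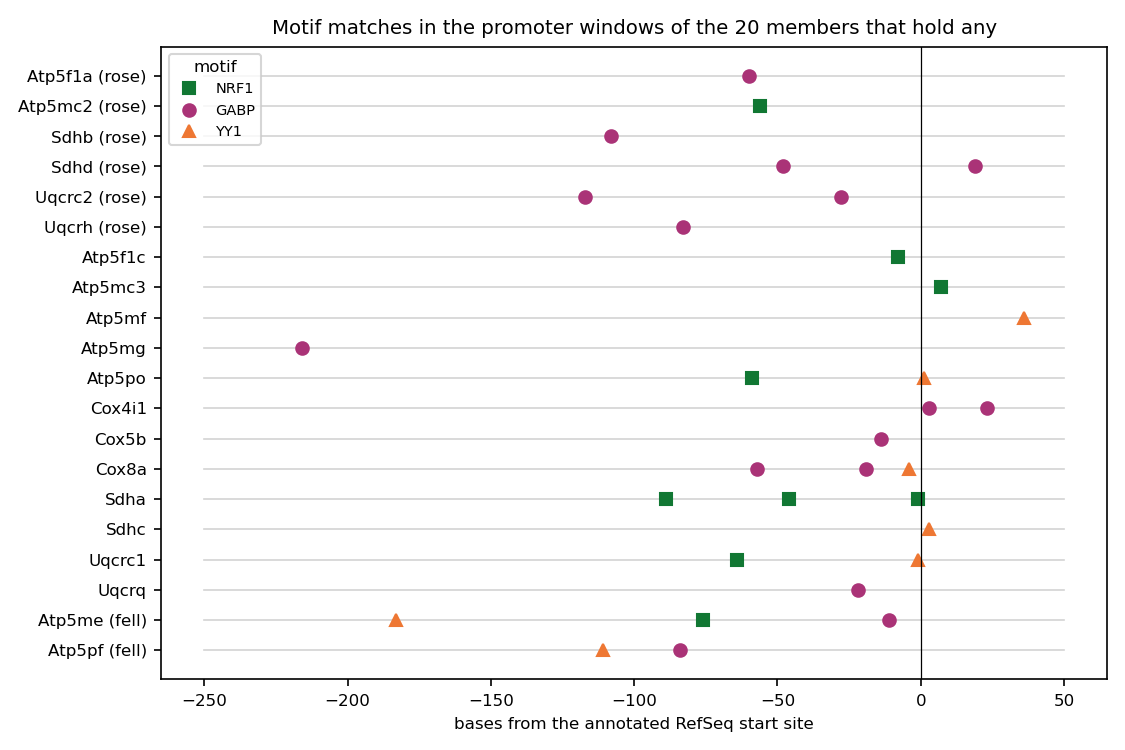
Positions of motif matches, in bases from the annotated start, in the 20 member promoters that hold any, with squares for NRF1, circles for GABP and triangles for YY1. GABP matches stand in 5 of the 6 members shown that rose in high smoke, in both that fell and in 5 of the 12 not called. Members without a match are not shown, and no difference in motifs by call was tested.

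In complex II the iron-sulfur subunit and a membrane anchor rose (2 of 4), and the other 2 members did not pass. Over all tested genes, 9.21% rose. Sdhb, the iron-sulfur subunit (chromosome 5, 159484370 to 159505065 in build rn6), was 392 to 502 normalized counts in air (median 465), 486 to 610 in low smoke (median 528) and 540 to 740 in high smoke (median 608). Every high smoke library was above every air library, and low smoke overlapped both. Its rise in high smoke was 1.37-fold (log2 0.45, SE 0.075, limma adjusted p = 0.000583), with 0.37 on the log2 scale (adjusted p = 0.0313) without high smoke replicates 1, 3 and 7. Sdhd, a membrane anchor that holds heme and the quinone site, was 424 to 633 in air (median 506), 420 to 538 in low smoke (median 472) and 523 to 668 in high smoke (median 614). Air and high smoke overlapped, with 3 of 7 high smoke libraries above the highest air library. Its rise was 1.18-fold (log2 0.24, SE 0.082, limma adjusted p = 0.0461) and was not past the threshold without replicates 1, 3 and 7 (0.14, adjusted p = 0.536) or with equal library totals (0.165). It also lost its call on leaving out any of 15 single libraries (in air all but replicate 3, in low smoke 1, 4, 5, 6 or 8, in high smoke 1, 3, 5 or 7), with adjusted p from 0.0516 to 0.107.

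Sdhc, the other membrane anchor, stood at 0.22 on the log2 scale without passing (SE 0.101, limma adjusted p = 0.135). Its libraries ran from 345 to 473 in air, 330 to 400 in low smoke and 310 to 556 in high smoke, so the high smoke range enclosed that of air. It passed without high smoke replicate 6 (0.31, adjusted p = 0.016) and stood at 0.11 without replicates 1, 3 and 7. Sdha, the flavoprotein that oxidizes succinate, stood at -0.07 (SE 0.075, limma adjusted p = 0.596), with 936 to 1234 in air, 949 to 1178 in low smoke and 887 to 1113 in high smoke. The Sdha groups overlapped throughout. Sdhaf2, which attaches the flavin to Sdha, rose 1.28-fold (SE 0.069, limma adjusted p = 0.0019), from a median of 630 in air to 787 in high smoke with no overlap between the groups. It was 1 of 2 tested complex II assembly factors, and without replicates 1, 3 and 7 it stood at 0.27 (adjusted p = 0.0884). Over all tested genes, 9.21% rose and 1.3% were higher in high smoke without overlap. Sdhaf3 stood at 0.93 (log2) and was not past the test, with low values (5.4 to 13 in air and 9.54 to 40.9 in high smoke). Sdhaf4 lay under the level filter.

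In complex III a core protein, the hinge protein and cytochrome c1 rose (3 of 9), and the other 6 members did not pass. Over all tested genes, 9.21% rose. Uqcrc2, a core protein that shapes the matrix side of the complex (chromosome 1, 190555177 to 190585735), was 1017 to 1203 in air (median 1116), 1071 to 1376 in low smoke (median 1218) and 1338 to 2047 in high smoke (median 1503). High smoke replicates 1, 3 and 7 stood at 2047, 1764 and 2040, above the other 4 (1338 to 1503), which were still all above air. The rise was 1.48-fold (log2 0.57, SE 0.086, limma adjusted p = 0.000326), or 0.38 on the log2 scale (adjusted p = 0.0169) without those 3. Uqcrh, the acidic hinge protein beside cytochrome c1 (chromosome 5, 134919044 to 134927236), was 204 to 265 in air (median 214), 202 to 256 in low smoke (median 237) and 274 to 417 in high smoke (median 347). It was the 1 member whose high smoke libraries lay above every library of both other groups, and 0.382% of all tested genes were higher in high than in low smoke without overlap. Its rise was 1.5-fold (log2 0.58, SE 0.095, limma adjusted p = 0.000512), or 0.42 (adjusted p = 0.0408) without replicates 1, 3 and 7.

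Cyc1, cytochrome c1, which gives electrons to cytochrome c, was 141 to 194 in air (median 155), 156 to 247 in low smoke (median 177) and 176 to 256 in high smoke (median 218). In 5 of 7 high smoke libraries it exceeded the highest air library. The rise was 1.34-fold (log2 0.43, SE 0.106, limma adjusted p = 0.00914), and it was not past the threshold without replicates 1, 3 and 7 (0.28, adjusted p = 0.274) or by the exact rank-sum test (adjusted p = 0.0566). Uqcrfs1, the Rieske iron-sulfur protein, stood at 0.18 (SE 0.11, limma adjusted p = 0.271), and at -0.002 without those 3 libraries. Uqcrc1, the other core protein, stood at 0.03 (SE 0.085, limma adjusted p = 0.817), with 346 to 535 in air and 381 to 488 in high smoke. The small subunits Uqcrb, Uqcr10, Uqcr11 and Uqcrq stood at 0.13, -0.01, -0.14 and -0.26. The Uqcrb row lies on another chromosome than the RefSeq gene of that name. Cycs, the soluble carrier between complexes III and IV, stood at -0.08 (SE 0.107, limma adjusted p = 0.648), with 119 to 180 in air, 123 to 205 in low smoke and 131 to 170 in high smoke.

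Of 6 complex III assembly factors, 2 rose and 0 fell in high smoke, beside 9.21% and 7.05% of all tested genes. Uqcc2, which with Uqcc1 supports synthesis of mitochondrial cytochrome b, rose 1.87-fold, from 31 to 53.8 in air and 40.9 to 68.3 in low smoke to 54.5 to 96.2 in high smoke (SE 0.152, limma adjusted p = 0.000642). High smoke did not overlap air, and without replicates 1, 3 and 7 the change was 0.68 on the log2 scale (adjusted p = 0.049). Uqcc1 rose 1.23-fold (SE 0.093, limma adjusted p = 0.0313) and was not past the threshold without those libraries (0.19, adjusted p = 0.34). Bcs1l, Ttc19, Lyrm7 and Uqcc3 stood between -0.14 and 0.17, none past the test.

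**Figure D3:**
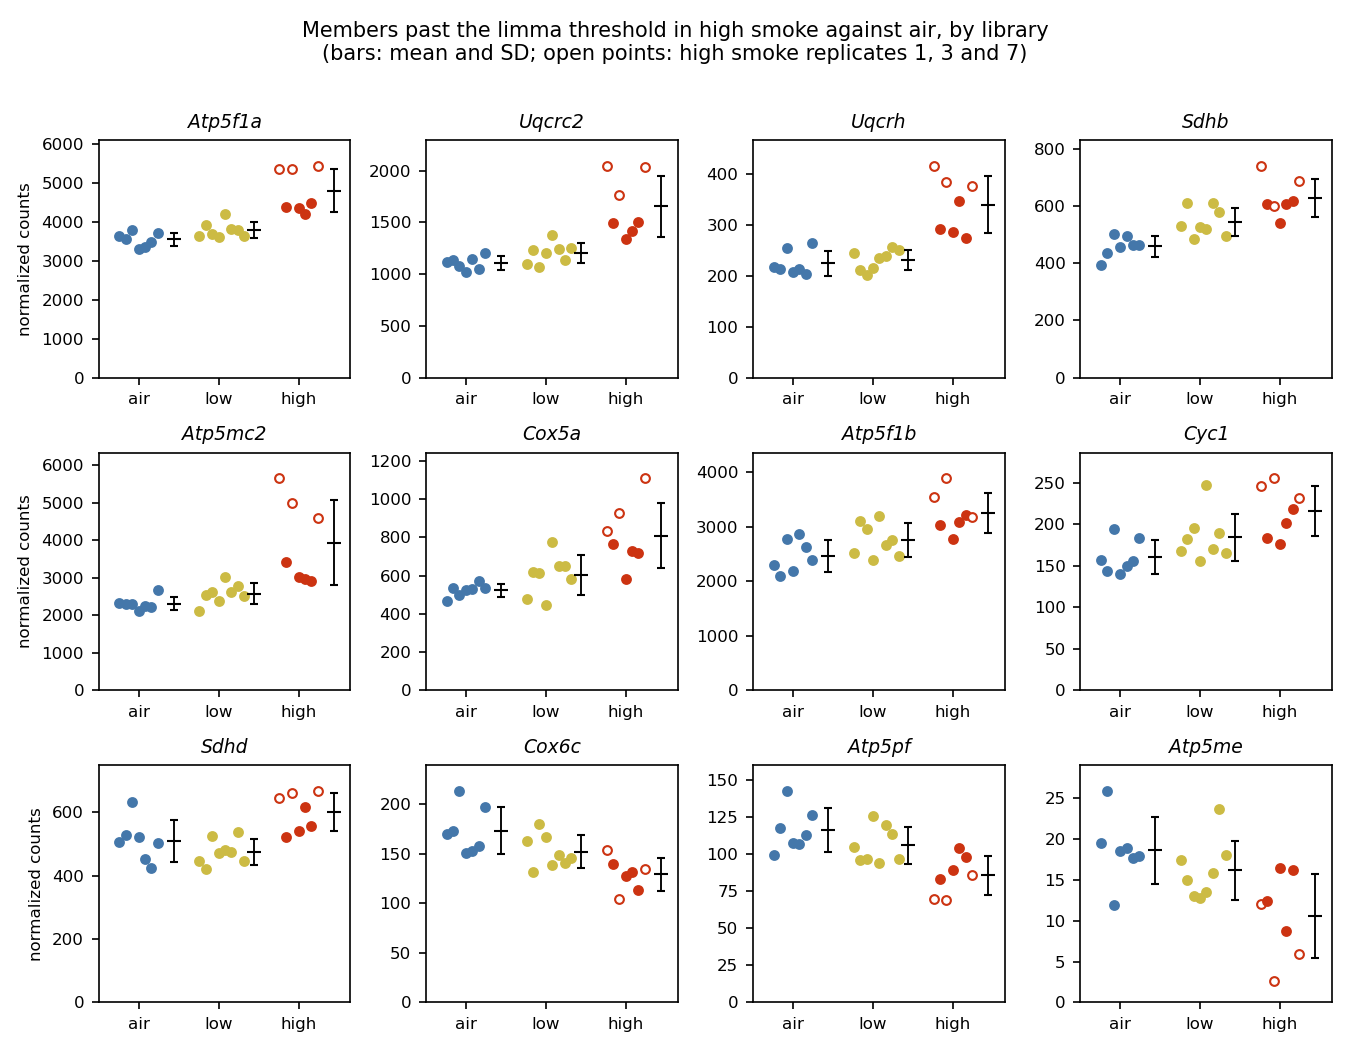
Normalized counts in every library for the 9 members that rose and the 3 that fell in high smoke against air, with the mean and SD of each group and open points for high smoke replicates 1, 3 and 7. High smoke lies wholly above air for Atp5f1a, Uqcrc2, Uqcrh, Sdhb, Atp5mc2 and Cox5a, and the open points are the highest for Atp5f1a, Uqcrc2, Uqcrh, Atp5mc2, Cox5a, Cyc1 and Sdhd.

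In complex IV 1 of 14 tested members rose, 1 fell and 12 did not pass, while 9.21% of all tested genes rose and 7.05% fell. Cox5a, a regulatory subunit on the matrix side (chromosome 8, 62298358 to 62309766), was 465 to 573 in air (median 529), 444 to 775 in low smoke (median 615) and 583 to 1111 in high smoke (median 768). Every high smoke library exceeded every air library, and low smoke spanned the gap. The rise was 1.52-fold (log2 0.61, SE 0.117, limma adjusted p = 0.00172), and it was 0.41 (adjusted p = 0.0903) without replicates 1, 3 and 7. Cox6c, a small membrane subunit (chromosome 7, 74723179 to 74735651), was 151 to 214 in air (median 170), 132 to 180 in low smoke (median 147) and 104 to 154 in high smoke (median 131). It was below the lowest air library in 6 of 7 high smoke libraries. The fall was -0.42 in log2 units (SE 0.1, limma adjusted p = 0.00659), and -0.43 (adjusted p = 0.0676) without those 3 libraries.

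Complex IV has tissue isoforms of several subunits. Cox4i1, the form found in most tissues, stood at -0.22 (log2) in high smoke against air (SE 0.093, limma adjusted p = 0.11), with 229 to 319 in air, 192 to 240 in low smoke and 183 to 267 in high smoke. Cox4i2, the form known in lung and in oxygen-sensing cells, stood at 0.18 (SE 0.132, limma adjusted p = 0.366), with 255 to 407 in air, 276 to 353 in low smoke and 263 to 560 in high smoke. Without replicates 1, 3 and 7 Cox4i1 stood at -0.17 and Cox4i2 at 0.09. The ratio of Cox4i2 to Cox4i1 counts within a library averaged 1.36 (SD 0.208) over the 7 air libraries, 1.46 (SD 0.182) over the 8 low smoke libraries and 1.83 (SD 0.469) over the 7 high smoke libraries, and air and high smoke overlapped. This ratio was not tested, and it says nothing of which isoform is the more abundant, since transcript lengths were not used.

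The striated muscle isoforms were low. Cox6a2 was 0 to 3.29 normalized counts in air, 0 to 1.03 in low smoke and 0 to 4.95 in high smoke. Cox7a1 was 14.2 to 39.3, 10.5 to 44.4 and 17.7 to 33.6, and stood at 0.15 in high smoke and 0.20 in low smoke, past no test. Cardiac muscle cells of the pulmonary veins also use these isoforms, and their 11 measured markers summed to 182 to 1760 in air, 206 to 1633 in low smoke and 209 to 1521 in high smoke, with 0 of 10 tested past limma. Cox6a1, the general counterpart of Cox6a2, stood at 0.07. The row named Cox6b1, which spans 262 bases on another chromosome than the RefSeq gene, stood at -0.03. The testis forms Cox6b2 (1.85 to 13.4 over all libraries), Cox7b2 (0 to 4.13) and Cox8c (7.59 to 29.9) had low values in every group. Cox8c stood at 0.31 in high smoke and Cox8a, its general counterpart, at -0.41 (SE 0.187, limma adjusted p = 0.134), neither past the test. Cox7a2l, which links complexes III and IV into supercomplexes, stood at 0.06 (SE 0.094, limma adjusted p = 0.7). Cox5b, Cox7c, Cox7b and the row named Cox7a2l2 stood at 0.19, 0.21, 0.13 and -0.25. Cox7a2 and Cox8b were not analysed here.

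Among 19 tested complex IV assembly and associated genes 2 rose and 1 fell, beside 9.21% and 7.05% of all tested genes. Cox17, the copper chaperone that feeds the copper centres, rose 1.48-fold, from 123 to 205 in air and 138 to 193 in low smoke to 206 to 309 in high smoke (SE 0.111, limma adjusted p = 0.00184). High smoke did not overlap air, and without replicates 1, 3 and 7 the change was 0.45 (adjusted p = 0.0783). Cmc1 rose 1.36-fold (SE 0.146, limma adjusted p = 0.0415), and Cox16, which takes part in copper insertion, fell by 0.43 in log2 units (SE 0.107, limma adjusted p = 0.00914). Neither Cmc1 (0.17) nor Cox16 (-0.32) was past the threshold without those libraries. Ndufa4, which is named after complex I and is a subunit of complex IV, stood at 0.01.

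In complex V 3 of 16 tested members rose and 2 fell, beside 9.21% and 7.05% of all tested genes. Those that rose were Atp5f1a and Atp5f1b of the catalytic head and Atp5mc2 of the rotor ring. Those that fell were Atp5pf of the peripheral stalk and Atp5me of the membrane part. Other genes of each of these parts did not pass. Atp5f1a, the alpha subunit of the head (chromosome 18, 74156553 to 74164496), was 3301 to 3773 in air (median 3566), 3598 to 4200 in low smoke (median 3732) and 4194 to 5433 in high smoke (median 4476). The high smoke libraries were all above air, with replicates 1, 3 and 7 at 5362, 5354 and 5433 and the other 4 at 4194 to 4476. The rise was 1.35-fold (log2 0.43, SE 0.065, limma adjusted p = 0.000326), or 0.30 (adjusted p = 0.023) without those 3. Atp5f1b, the beta subunit that carries the catalytic sites, was 2100 to 2856 in air (median 2383), 2378 to 3202 in low smoke (median 2711) and 2775 to 3889 in high smoke (median 3168). It exceeded the highest air library in 6 of 7 high smoke libraries and rose 1.32-fold (log2 0.40, SE 0.086, limma adjusted p = 0.0033), with 0.31 (adjusted p = 0.122) without replicates 1, 3 and 7. The other subunits of the head did not pass: Atp5f1c (gamma) stood at 0.14, Atp5f1d (delta) at -0.01 and Atp5f1e (epsilon) at -0.03.

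The c-ring, which turns as protons pass, is encoded by 3 genes in mammals whose mature proteins are identical. Atp5mc2 (chromosome 7, 144264199 to 144272579) was 2103 to 2682 in air (median 2286), 2119 to 3029 in low smoke (median 2581) and 2905 to 5656 in high smoke (median 3413). All high smoke libraries were above air, and replicates 1, 3 and 7, at 5656, 4995 and 4578, were well above the other 4 (2905 to 3413). The rise was 1.65-fold (log2 0.72, SE 0.124, limma adjusted p = 0.000722), the largest among the 44, or 0.41 (adjusted p = 0.0238) without those 3. Atp5mc3 stood at 0.20 (SE 0.102, limma adjusted p = 0.184), or 0.03 without those 3, and Atp5mc1 at 0.15 (SE 0.142, limma adjusted p = 0.49). Whether Atp5mc2 differs from the other c-ring genes in its change was not tested.

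In the peripheral stalk, which keeps the head from turning, Atp5pf, a small coupling subunit (chromosome 11, 24286787 to 24294180), was 99.7 to 143 in air (median 113), 94 to 126 in low smoke (median 101) and 69.4 to 104 in high smoke (median 86.4). It was below the lowest air library in 6 of 7 high smoke libraries and fell by 0.44 in log2 units (SE 0.108, limma adjusted p = 0.00793), with -0.31 (adjusted p = 0.225) without replicates 1, 3 and 7. The other stalk genes Atp5pd, Atp5po and Atp5pb stood at 0.22, -0.06 and -0.11, none past the test. Atp5me, a small membrane subunit at the dimer interface (chromosome 14, 2325308 to 2326437), was 11.9 to 26 in air (median 18.5), 12.8 to 23.7 in low smoke (median 15.4) and 2.62 to 16.5 in high smoke (median 12). These values are near the level filter. The fall was -0.89 (SE 0.278, limma adjusted p = 0.0301), with -0.45 (adjusted p = 0.389) without replicates 1, 3 and 7, which stood at 12, 2.62 and 5.94. The call was also lost without air replicate 1, 2 or 4 or high smoke replicate 3 or 7 (adjusted p from 0.0515 to 0.0715), by the fit of the 2 groups (0.0816) and by the exact rank-sum test (0.0721).

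The other membrane subunits Atp5mf and Atp5mg stood at -0.32 and 0.06, and the row named Atp5md had 1.2 to 14 normalized counts over all libraries and was not tested. Atp5if1, the inhibitor that stops the enzyme from running in reverse, stood at -0.14 (SE 0.1, limma adjusted p = 0.365), with 112 to 154 in air, 100 to 155 in low smoke and 94.3 to 128 in high smoke. Beside 9.21% up and 7.05% down over all tested genes, 0 of 6 tested complex V assembly genes rose and 1 fell. That was Atpaf1, a chaperone of the beta subunit, which fell by 0.21 (SE 0.056, limma adjusted p = 0.0154), from 482 to 537 in air to 418 to 479 in high smoke without overlap. It stood at -0.17 (adjusted p = 0.225) without replicates 1, 3 and 7.

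The mean over a complex's tested genes, as a log2 difference from the air mean, was 0.21 ± 0.118 in high smoke for complex II, 0.17 ± 0.188 for complex III, 0.04 ± 0.124 for complex IV and 0.02 ± 0.091 for complex V (SD, n = 7). Over the 4 high smoke libraries other than replicates 1, 3 and 7 it was 0.13 ± 0.078, 0.04 ± 0.074, 0.02 ± 0.107 and -0.01 ± 0.046 (SD, n = 4). In low smoke the same means were 0.01 ± 0.071, -0.03 ± 0.059, -0.06 ± 0.111 and -0.05 ± 0.047 (SD, n = 8). Air replicate 3 was the highest air library for each of the 4 complexes, at 0.205 to 0.282, and stood within the high smoke range for complexes II and III and above it for complexes IV and V. Nuclear genes of complex I, measured alongside, had 6 of 40 tested up and 0 down in high smoke with a median of 0.09, and mitochondrial ribosomal proteins 10 of 70 up and 1 down with a median of 0.09, beside 0.10 for complexes II to V. Without replicates 1, 3 and 7 these medians were 0.03, 0.07 and 0.03. In that setting 1 complex I gene and 0 mitochondrial ribosomal protein genes rose and 0 of either fell. The shares of all tested genes were then 0.681% up and 0.181% down, and 9.21% and 7.05% with all libraries. No difference between these sets was tested.

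**Figure D4:**
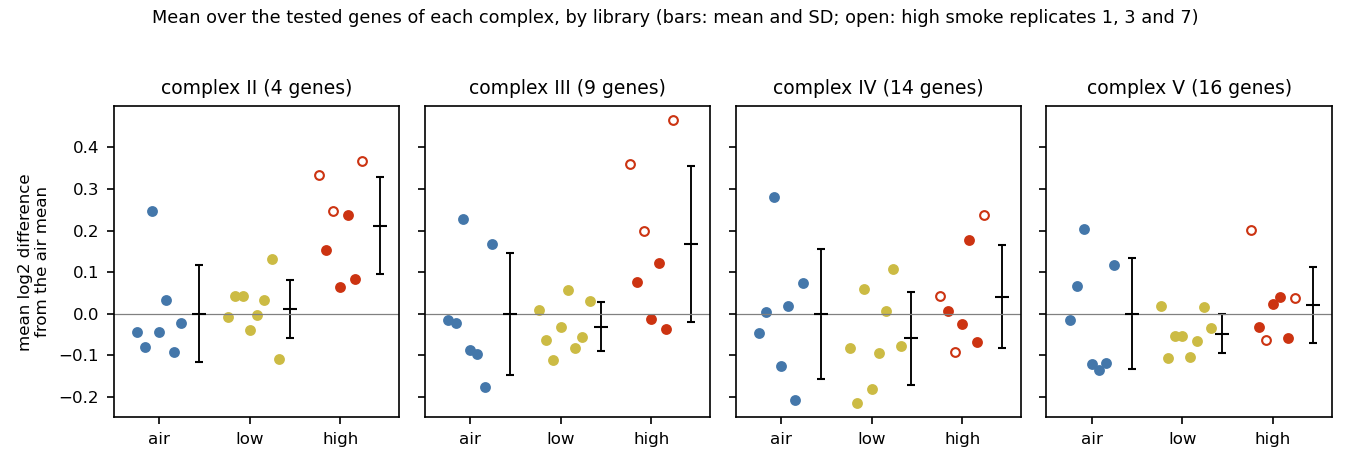
Mean log2 difference from the air mean over the tested genes of complexes II, III, IV and V in every library, with the mean and SD of each group and open points for high smoke replicates 1, 3 and 7. Complex II is the highest in high smoke at 0.21, followed by complexes III (0.17), IV (0.04) and V (0.02). Each of these means lies within the range of the air libraries.

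Low smoke was compared with air to see whether the same subunits differ at the lower concentration. By limma 0 of 44 members passed, as did 0% of all tested genes, with 2 members at an unadjusted p below 0.05, and the exact rank-sum test also called 0 (4 at an unadjusted p below 0.05). The median was -0.07 on the log2 scale against 0.00 for all tested genes, and 15 of 44 members lay above air. Without air replicate 3 the median was -0.02 and 20 of 44 lay above air. Sdhb stood at 0.24 (SE 0.072, limma adjusted p = 0.495) and Cox7b, a small subunit of complex IV, at -0.44 (limma adjusted p = 0.724). Cox7b was 44.4 to 72.7 in air and 22 to 60.6 in low smoke, so the groups overlapped. Of the 9 members that rose in high smoke, 8 had a low smoke mean above the air mean, and the exception was Sdhd. Air is the common reference in both contrasts, and the 9 were chosen by their difference from it, which favours a low smoke mean above air in advance. This count therefore cannot show a graded response, and the same share among all genes that rose was not counted.

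High smoke was then compared with low smoke. By limma 8 of 44 members rose and 0 fell, while 3.8% of all tested genes rose and 2.98% fell. They were Sdhc and Sdhd of complex II, Uqcrc2, Uqcrh and Uqcrfs1 of complex III, Cox5a, and Atp5f1a and Atp5mc2. The rises were 1.25-fold and 1.26-fold for Sdhc and Sdhd (adjusted p = 0.0496 and 0.0219), 1.37-fold, 1.45-fold and 1.29-fold for Uqcrc2, Uqcrh and Uqcrfs1 (adjusted p = 0.014, 0.014 and 0.0413), 1.34-fold for Cox5a (adjusted p = 0.0313), and 1.26-fold and 1.48-fold for Atp5f1a and Atp5mc2 (adjusted p = 0.014 and 0.0167). Sdhc and Uqcrfs1 had lower means in low smoke (359 and 1303) than in air (386 and 1494). The calls depended on single libraries. Sdhc lost its call on leaving out any of 19 single libraries, Uqcrfs1 any of 9 and Cox5a any of 6, and Sdhd and Atp5mc2 lost theirs without high smoke replicate 1, 3 or 7. The count was 3 without high smoke replicate 1, 3 or 7, 5 without low smoke replicate 1 or 2, and 14 without high smoke replicate 4. The count over all tested genes moved with it, from 977 to 35, 51 and 29 without high smoke replicate 1, 3 or 7, to 316 and 296 without low smoke replicate 1 or 2, and to 1651 without high smoke replicate 4. Without replicates 1, 3 and 7 together limma called 0 members and 0 of all tested genes. At an unadjusted p below 0.05 there were 6 members, and the share of all tested genes at that level was not counted.

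Mitochondrial DNA encodes 6 further subunits of complexes III, IV and V. Of these 6 genes, 2 fell in high smoke against air and 0 rose, beside 7.05% and 9.21% of all tested genes. The 2 are Mt-atp6 and Mt-atp8, whose reading frames overlap in mammals, so their falls need not be separate observations. Mt-atp6, the channel subunit beside the c-ring, was 4469 to 9366 in air (median 8966), 3682 to 9222 in low smoke (median 6747) and 1678 to 6683 in high smoke (median 4162). It fell by 1.02 in log2 units (SE 0.23, limma adjusted p = 0.00478). The within-library ratio of Mt-atp6 to Atp5f1a counts averaged 2.24 (SD 0.5) over the 7 air libraries. It averaged 1.78 (SD 0.431) over the 8 low smoke libraries and 0.897 (SD 0.43) over the 7 high smoke libraries. Mt-atp6 fell and Atp5f1a rose in high smoke against air, so this ratio is not a separate observation. The ratio of Mt-co2 to Cox5a averaged 58.5 (SD 14.0) for air, 59.4 (SD 11.4) for low smoke and 56.6 (SD 15.6) for high smoke. That of Mt-cyb to Uqcrc2 averaged 13.9 (SD 1.89), 12.0 (SD 2.42) and 9.96 (SD 2.13) by the same order of groups. These ratios are descriptions with no test.

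Mt-atp8, whose reading frame overlaps that of Mt-atp6 in mammals, was 1539 to 2250 in air, 1449 to 1914 in low smoke and 831 to 1845 in high smoke and fell by 0.63 (SE 0.125, limma adjusted p = 0.002). In 6 of 7 high smoke libraries it was below the lowest air library. The complex IV core subunits Mt-co1, Mt-co2 and Mt-co3 stood at -0.27, 0.53 and -0.24 and cytochrome b of complex III, Mt-cyb, at 0.08, none past the test. Mt-co2 was 19042, 61690 and 70662 in high smoke replicates 1, 3 and 7 and 38406 to 50488 in the other 4, so the 3 libraries held both its lowest and its highest values. Without those 3 libraries Mt-atp6 (-0.59, adjusted p = 0.174) and Mt-atp8 (-0.49, adjusted p = 0.063) were not past the threshold. Against low smoke both also fell, by 0.78 (adjusted p = 0.0385) and by 0.40 (adjusted p = 0.0464), and neither was called in that contrast without replicates 1, 3 and 7.

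**Figure D5:**
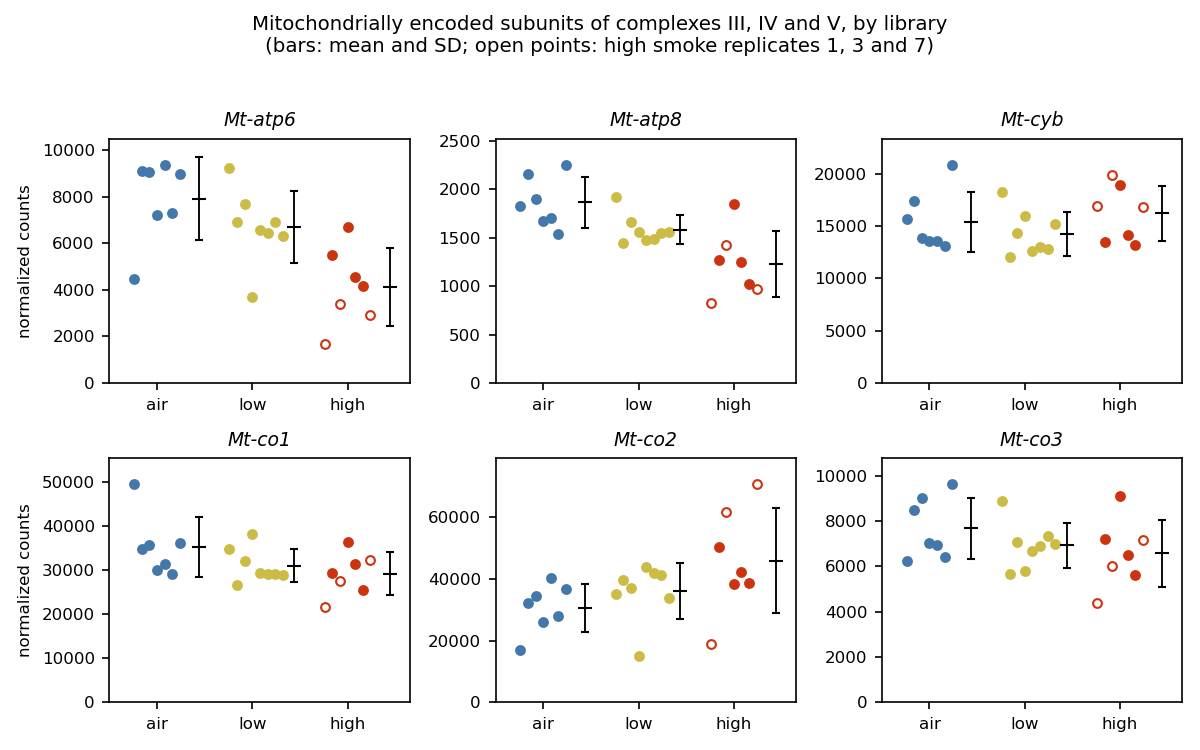
Normalized counts in every library for the 6 mitochondrially encoded subunits of complexes III, IV and V, with the mean and SD of each group and open points for high smoke replicates 1, 3 and 7. Mt-atp6 and Mt-atp8 fell in high smoke against air, with overlap, while Mt-cyb, Mt-co1, Mt-co2 and Mt-co3 overlap air.

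Among 17 regulators of respiratory gene expression, 1 rose and 2 fell in high smoke against air, beside 9.21% and 7.05% of all tested genes. Esrra, the nuclear receptor that works with PGC-1 coactivators on these genes, was 58.4 to 113 in air, 53.5 to 73.3 in low smoke and 36.6 to 70 in high smoke and fell by 0.56 (SE 0.152, limma adjusted p = 0.0149). It was below the lowest air library in 6 of 7 high smoke libraries. Polg, the polymerase that copies mitochondrial DNA, rose 1.2-fold (SE 0.073, limma adjusted p = 0.0189), and Gabpb1 was the other gene that fell. None of these 3 was past the threshold without replicates 1, 3 and 7 (Esrra -0.40, Polg 0.19, Gabpb1 -0.21). The coactivator Ppargc1a stood at -0.20 and Tfam, which packs and transcribes mitochondrial DNA, at 0.26, neither past the test. Of 6 tested carriers that exchange nucleotides and phosphate across the mitochondrial membranes, Vdac3 of the outer membrane rose 1.23-fold (SE 0.094, limma adjusted p = 0.0319), with 0.13 (adjusted p = 0.571) without those libraries.

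Fractional values were common among the members. Values in 24 of the 44 tested members were within 0.02 reads of a whole number in all 22 libraries, or 54.5%, against 76.1% of 13503 protein-coding genes. In 7 members they were whole in at most 2 libraries. Among the members that rose, Uqcrc2 and Atp5mc2 were whole in 0 libraries and Cox5a in 3, while Sdhb, Sdhd, Cyc1, Uqcrh, Atp5f1a and Atp5f1b were whole in 21 or 22. The members that fell were whole in 12 (Cox6c), 15 (Atp5me) and 16 (Atp5pf) libraries. A further limit came from the loci: the rows named Uqcrb, Cox6b1, Cox7a2l2 and Atp5md lie on another chromosome than the RefSeq gene of that name. The Uqcrb, Cox6b1 and Atp5md rows span only 476, 262 and 309 bases, so their values describe those loci. Uqcrb, Cox6b1 and Cox7a2l2 were tested and enter the member counts, medians and complex means above. The reason for the fractional values, and its part in any change, was not tested.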

How the data were processed

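Lung RNA was sequenced in 22 libraries (air 7, low smoke 8, high smoke 7). The labels give 24 rats randomized, with 8 planned per group. The protocol names 1 filtered-air sample lost to poor quality, and the labelled air rats run from 1 to 7 and the low smoke rats from 9. A high smoke sample (rat 24) also carries the mark of removal. That sample has no values and was not analysed here. The authors' deposited values, named normalized counts, are a signal in which low values are mostly whole multiples of a step that differs between libraries. Partek, STAR 2.7.3a, DESeq2 and build rn6 are named in the submitters' processing notes, without their order, and the counting rule is not given in the sources used here. Among low values (under 200 reads), only 80.7% to 82.8% were whole to within 0.02 reads, so no count model was used. Values were transformed to log2(value + 1), which understates changes of low genes, and genes with a mean of at least 10 (14414) were fitted together with limma 3.58.1 in R 4.3.3 (group means, intensity trend). Tests were two-sided, with Benjamini-Hochberg adjustment over all 14414 genes and a threshold of 0.05, and the script was tested on simulated data. The labels give 1 rat per library.

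Members, lists and tests were chosen with earlier results of these data known. The text names every member called in any contrast, the isoform pairs, the 3 members of each complex with the smallest p, called genes of the other lists and the mitochondrially encoded subunits. Other members are given by value or range. Alternatives were other pseudocounts, level filters and scalings (trimmed mean of M values among them), robust shrinkage, fits of 2 groups, an exact rank-sum test and leaving out libraries. Promoters came from RefSeq.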

Additional observations from a re-analysis of the deposited data

Results flagged for a closer look

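Within-group outliers were looked for in 150 groups of libraries (44 members and 6 mitochondrially encoded genes in 3 treatment groups), and 15 had a library far from the rest by Dixon's criterion on log2 values, where chance gives about 5% of groups. In air, replicate 3 was high for Cox4i1 (319), replicate 5 for Cox7a1 (39.3), replicate 7 for Atp5mc2 (2682) and replicate 1 for Mt-co1 (49483), while replicate 6 was low for Cox8a (17.7) and replicate 1 low for Mt-atp6 (4469). In low smoke, replicate 3 was high for Cycs (205), replicate 2 low for Atp5mg (1107), replicate 5 low for both Atp5pb (104) and Atp5po (86.7), and replicate 4 low for both Mt-co2 (15180) and Mt-atp6 (3682). In high smoke, replicate 4 was low for Cox7a2l (509) and Atp5pb (112), and replicate 3 low for Cox8c (7.59). All values are normalized counts.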

How the results depend on the processing

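For high smoke against air, 12 members were called, 10 to 14 without any 1 library, 9 to 12 under the other pseudocounts, level filters, scalings, fits and the rank-sum test, and 5 without high smoke replicates 1, 3 and 7. For high smoke against low smoke, 8 were called, 3 to 14 without any 1 library, 3 by the rank-sum test, and 0 without those 3 libraries. For low smoke against air the count was 0 under every alternative run. No called member changed sign under any alternative. Among all tested genes, 2343 were called in high smoke against air, 746 by the rank-sum test, 1351 with only the 2 groups fitted and 124 without replicates 1, 3 and 7. Some members passed only when 1 library was left out (Sdhc, Cox4i1, Cox8a, Atp5f1c, Atp5mc3 and Atp5pd in high smoke against air). The causes were not tested. No paired analysis was possible because rats are numbered across groups and no label matches them. Depth limits Atp5me, Cox8c and the other members near the level filter.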
